A study of Homo sapiens with 20 samples.

Results

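The accessible chromatin at 6 genes of the endothelial lineage, ERG, FLI1, CDH5, KDR, TEK and CD34, was described in SW872 cells, an established human liposarcoma line, expressing the fusions TAZ-CAMTA1 or YAP-TFE3. Both fusions are known as drivers of epithelioid hemangioendothelioma, a vascular sarcoma, and the question was whether they open these loci in a line that is not vascular. Each gene was represented by a fixed window of the hg19 genome that holds the gene and its surroundings, and every peak overlapping a window was counted as a member. The windows were chr21:39741000-40044000 for ERG, chr11:128546000-128694000 for FLI1, chr16:66390000-66449000 for CDH5, chr4:55934000-56002000 for KDR, chr9:27099000-27241000 for TEK and chr1:208047000-208095000 for CD34, 768 kb in all. They held 920 of the 1407450 peaks of the series, which merged to 242 of its 372133 sites. A site is a stretch made by joining overlapping peaks of any list.

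ATAC-seq, which maps open chromatin by inserting sequencing adapters with a transposase, had been run on 20 libraries of stably transduced cells. All cells carried a pBabeNeo retroviral vector and had been selected with G418 as pools. The vectors were the empty vector (EV), TAZ4SA, YAP5SA, CAMTA1, TFE3, TAZ-CAMTA1 and YAP-TFE3. TAZ4SA and YAP5SA are full-length TAZ and YAP with serines changed to alanine, CAMTA1 and TFE3 are the full-length partners, and the YAP-TFE3 libraries are titled Yap5SA-TFE3. Each vector had 3 libraries except TFE3, which had 2, and 1 EV library is titled a redo. The deposited result is 1 peak list per vector with no value per library. No difference below therefore has a replicate error or a test, and the read depth of the lists is not known. In pools of cells, accessibility in fewer cells and lower accessibility in each cell cannot be told apart. The marker genes of adipose and endothelial cells were not checked here, since no hg19 gene annotation was used.

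ERG and FLI1 are transcription factors of the ETS family that keep endothelial genes on. CDH5 encodes VE-cadherin, the adhesion protein of endothelial junctions, KDR the main receptor for vascular endothelial growth factor, TEK the angiopoietin receptor TIE2, and CD34 a surface sialomucin of vascular and blood progenitors. TAZ and YAP act on chromatin through the TEAD factors, full-length CAMTA1 carries a domain that binds CGCG, and TFE3 binds E-box elements. TAZ-CAMTA1 holds only the C terminus of CAMTA1, and the study names no CGCG-binding domain among the parts it contributes. A CGCG match is therefore no sign that the fusion binds there.

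The sequences just upstream of the start show which of these elements lie there. RefSeq entries on GRCh38.p14 were found for 4 of the 6 genes, and for each the 250 bases before the start are printed, from the most upstream start where several are listed. They lie at chr21:38660668-38660917 on the minus strand for ERG, chr4:55125596-55125845 on the minus strand for KDR, chr9:27108975-27109224 on the plus strand for TEK and chr1:207911126-207911375 on the minus strand for CD34. Capitals mark the motifs found on either strand among GGAATG for TEAD, TGANTCA for AP-1, CGGAAG for ETS factors, CACGTG for the E-box and CGCG for CAMTA.
ERG: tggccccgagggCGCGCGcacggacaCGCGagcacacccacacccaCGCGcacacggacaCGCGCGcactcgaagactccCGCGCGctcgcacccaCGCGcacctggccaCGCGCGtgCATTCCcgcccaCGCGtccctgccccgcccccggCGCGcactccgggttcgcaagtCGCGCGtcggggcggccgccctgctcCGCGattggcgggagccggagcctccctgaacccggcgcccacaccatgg
KDR: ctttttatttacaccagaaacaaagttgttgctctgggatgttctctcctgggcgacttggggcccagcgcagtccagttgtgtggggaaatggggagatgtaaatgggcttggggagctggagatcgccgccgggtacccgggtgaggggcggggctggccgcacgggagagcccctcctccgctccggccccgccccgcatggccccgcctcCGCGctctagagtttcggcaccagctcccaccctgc
TEK: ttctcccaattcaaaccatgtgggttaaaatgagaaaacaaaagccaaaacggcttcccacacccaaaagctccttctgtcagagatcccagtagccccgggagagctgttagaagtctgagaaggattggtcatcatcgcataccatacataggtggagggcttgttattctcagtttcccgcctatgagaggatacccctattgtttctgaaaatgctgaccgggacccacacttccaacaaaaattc
CD34: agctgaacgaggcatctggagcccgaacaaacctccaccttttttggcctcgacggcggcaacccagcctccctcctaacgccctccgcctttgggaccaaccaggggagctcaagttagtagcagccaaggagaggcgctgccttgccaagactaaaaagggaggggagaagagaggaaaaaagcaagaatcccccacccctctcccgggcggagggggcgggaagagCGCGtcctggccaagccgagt

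The ERG sequence held 16 overlapping CGCG matches and 1 TEAD match, read on the opposite strand as CATTCC, and no match shared a base with a different motif. KDR and CD34 held 1 CGCG match each, and TEK held none of the motifs. CGCG was present in 46.4% of all 35116 upstream sequences of that length, GGAATG in 11.9%, CGGAAG in 16.5%, TGANTCA in 6.57% and CACGTG in 6.34%. The G and C content was 77.2% for ERG, 65.2% for KDR, 61.6% for CD34 and 46.4% for TEK, against a median of 58%. A match of letters is a description and not a site of binding. These sequences are in another build than the peaks and were not placed against them.

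In EV cells the windows were already more open than the genome as a whole. EV peaks covered 5.70% of the windows and 2.28% of all sequence between the chromosome ends. FLI1 and CDH5 accounted for this, with 12.5% and 19.7% of their windows covered. EV peaks covered 3.69% of CD34, 3.42% of TEK, 2.00% of KDR and 1.85% of ERG. The plot of covered bases shows these levels for every vector.

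**Figure D1:**
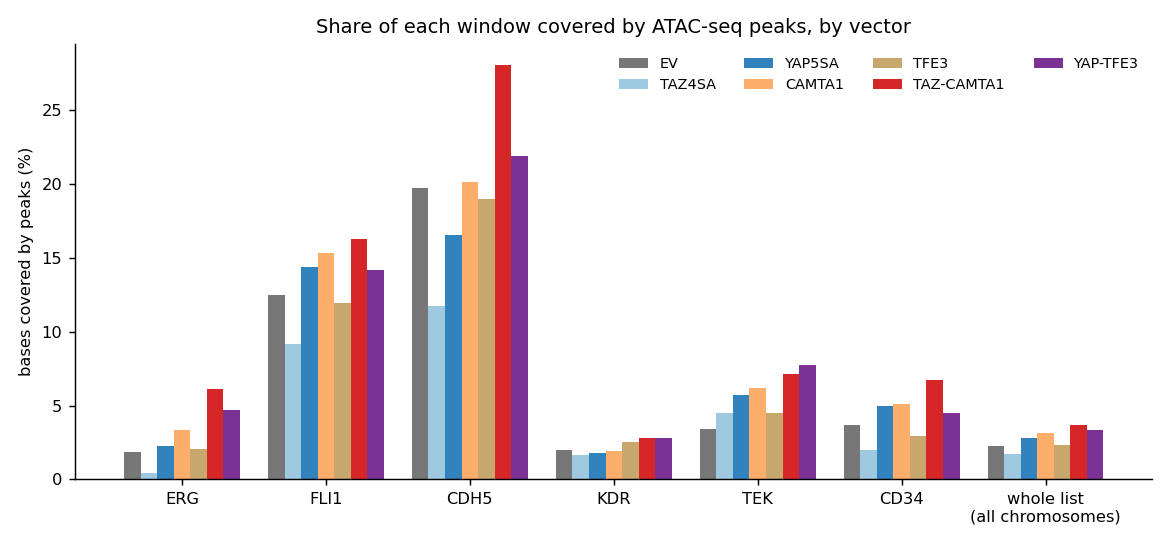
Share of bases covered by peaks (%, y axis) in the 6 windows and over the whole list (x axis), with 1 bar per vector and no error bars because each vector has 1 list. FLI1 and CDH5 were the most covered windows for every vector, and ERG rose from 1.85% in EV to 6.09% in TAZ-CAMTA1 and 4.73% in YAP-TFE3.

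Over the 6 windows together the fusion lists held more peaks than EV, by a factor close to that of the whole lists. EV held 111 peaks, TAZ4SA 89, YAP5SA 139, CAMTA1 132, TFE3 104, TAZ-CAMTA1 180 and YAP-TFE3 165. The ratio of TAZ-CAMTA1 to EV was 1.62 (95% interval 1.28 to 2.05) against 1.38 over the whole lists. The ratio of YAP-TFE3 to EV was 1.49 (1.17 to 1.89) against 1.38. Both whole-list ratios lay inside these intervals, which come from the Wilson method, cover the counting of peaks only and treat peaks as independent. Without ERG, a choice made after seeing the data, the other 5 windows held 83 EV peaks, 111 TAZ-CAMTA1 peaks and 101 YAP-TFE3 peaks, giving 1.34 and 1.22.

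The share of peaks with no EV peak at the same place was also near that of the whole list. It was 98 of 180 TAZ-CAMTA1 peaks, or 54.4% (Wilson 95% interval 47.2 to 61.6), against 51.5% of the whole list. For YAP-TFE3 it was 80 of 165 peaks, or 48.5% (41.0 to 56.1), against 50.7%. Among the full-length proteins, 31.5% of TAZ4SA peaks in the windows lacked an EV peak against 33.9% of the list, and 24.0% of TFE3 peaks against 27.6%. The shares were 45.3% against 47.9% for YAP5SA and 41.7% against 46.8% for CAMTA1. For all 6 lists the whole-list share lay inside the Wilson interval of the share in the windows.

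By site, 44 of the 242 sites (18.2%) had a peak in both fusion lists and none in EV, against 14.0% of all sites of the series. Of these, 20 (8.26%) were in no other list, against 3.15% of all sites. In the other direction, 8 sites (3.31%) were in EV and in neither fusion list, against 4.79%. All 7 lists held 38 sites (15.7%), against 16.2%. ERG, which holds 87 of the 242 sites, supplied 24 of the 44 sites and 14 of the 20. The share of sites in both fusion lists and not in EV was 27.6% at ERG and 29.4% at TEK. It was 19.35% at CDH5, 14.3% at KDR, 8.33% at CD34 and 2.82% at FLI1. The share in the fusion lists alone was 16.1% at ERG and 11.8% at TEK. In the other 5 windows together, 20 of 155 sites (12.9%) were in both fusion lists and not in EV, and 6 (3.87%) were in both fusion lists alone. Both classes use the same EV list as their reference.

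By peak number and covered bases, ERG was the window where the fusion lists departed most from EV, although by summed area YAP-TFE3 departed more at TEK. It held 28 peaks in EV, 6 in TAZ4SA, 37 in YAP5SA, 44 in CAMTA1, 28 in TFE3, 69 in TAZ-CAMTA1 and 64 in YAP-TFE3. Both fusions stood above every full-length protein and TAZ4SA stood far below the rest. The ratio to EV was 2.46 (1.59 to 3.81) for TAZ-CAMTA1 and 2.29 (1.47 to 3.55) for YAP-TFE3, and both intervals lay above the whole-list ratio of 1.38. These intervals treat peaks as independent and are read here at the window with the highest ratios of the 6. Over 7853 stretches of the same length across the genome, the median ratio to EV of TAZ-CAMTA1 was 1.46, and that of YAP-TFE3 was 1.50. The interval of TAZ-CAMTA1 lay above its median, whereas that of YAP-TFE3 included its own.

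The bases covered at ERG gave the same order. EV peaks covered 5609 bp, TAZ4SA 1396 bp, YAP5SA 6817 bp, CAMTA1 10042 bp, TFE3 6317 bp, TAZ-CAMTA1 18453 bp and YAP-TFE3 14330 bp. The ratio to EV was 3.29 for TAZ-CAMTA1 and 2.55 for YAP-TFE3, against 1.61 and 1.48 over the whole lists. The stretches of equal length directly before and after the window had base ratios of 2.04 and 1.85. Their peak numbers rose less, from 64 in EV to 93 in TAZ-CAMTA1 and 101 in YAP-TFE3. TAZ4SA was low in those stretches too, with 33 peaks.

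Against its own full-length parts each fusion list was also longer at ERG. TAZ-CAMTA1 had 11.5 times as many peaks as TAZ4SA (5.11 to 25.9) and 1.57 times as many as CAMTA1 (1.08 to 2.28), where the whole lists gave 1.55 and 1.06. YAP-TFE3 had 1.73 times as many as YAP5SA (1.16 to 2.59) and 2.29 times as many as TFE3 (1.47 to 3.55), where the whole lists gave 1.02 and 1.51. The interval against TFE3 included the whole-list ratio and the list of TFE3 rests on 2 libraries. The large ratio to TAZ4SA rests on the 6 TAZ4SA peaks.

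**Figure D2:**
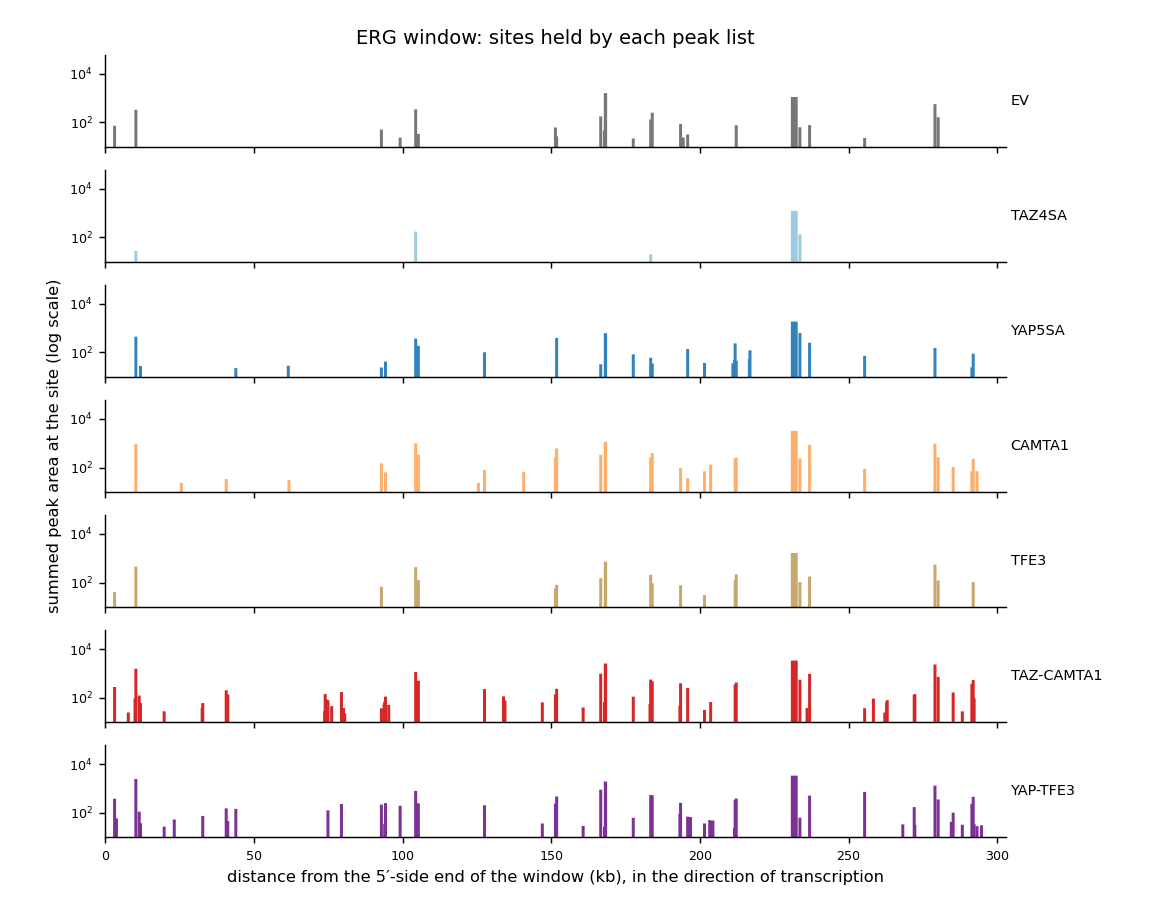
Sites of the ERG window in each list, with the distance from the 5′-side end of the window in kb on the x axis and the summed area of the peaks of that list at the site on a log y axis. Bars start at the axis floor, which lies below the smallest area of any peak, and narrow sites are drawn wider than they are. The stretch between 10.8 and 92.4 kb was picked as the longest without an EV site. In it TFE3 had no site, TAZ-CAMTA1 had 16 and YAP-TFE3 had 10.

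The new ERG sites were spread along the gene and most of them were weak. EV held 24 of the 87 ERG sites, and 1 of these was in neither fusion list. The longest stretch of the window with no EV site ran for 81.6 kb, from 10.8 to 92.4 kb of the 5′-side end in the direction of transcription. It was singled out after its values were seen. Within it TAZ4SA and TFE3 had 0 sites, YAP5SA 3, CAMTA1 3, TAZ-CAMTA1 16 and YAP-TFE3 10, with 8 in both fusion lists. The map of ERG sites shows them as a run of low bars in the lower tracks. The longest stretch without an EV site was 28.2 kb at TEK, with 8 TAZ-CAMTA1 and 7 YAP-TFE3 sites. At KDR (50.4 kb) and FLI1 (29.4 kb) each fusion list had 1 site in it. At CDH5 TAZ-CAMTA1 had 1 and YAP-TFE3 0, and at CD34 TAZ-CAMTA1 had 0 and YAP-TFE3 1. The ERG site of EV that neither fusion list held, at chr21:39850070-39850140, had an area of 23.9.

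Of the 24 ERG sites in both fusion lists and not in EV, CAMTA1 held 9, YAP5SA 7, TFE3 3 and TAZ4SA 0, and 14 were in no full-length list. Over all 52280 such sites of the series, CAMTA1 held 62.5%, YAP5SA 45.4%, TFE3 37.2% and TAZ4SA 18.7%, and 11730 were in no full-length list. The peak area, which is the caller's statistic summed over the peak and has no unit, had a median of 103 in TAZ-CAMTA1 and 82.9 in YAP-TFE3 at the 24 ERG sites. The medians of the whole lists were 142 and 154, but those include peaks shared with EV. A summit −log10 p of at least 5 was reached by 3 of the 24 in TAZ-CAMTA1 and 5 in YAP-TFE3. Neither value was computed for the 52280 sites of the series, so whether the ERG sites are weak for their class was not tested.

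Ranked by the smaller of the fusion areas, the strongest of them lay near the 3′-side end of the window. At chr21:39752403-39752603 the area was 530 in TAZ-CAMTA1, 454 in YAP-TFE3, 229 in CAMTA1, 105 in TFE3 and 89.2 in YAP5SA, and there was no peak in EV or TAZ4SA. The next, at chr21:39832409-39832667 in the body of the window, had areas of 346 in both fusion lists, 235 in YAP5SA, 230 in CAMTA1 and 126 in TFE3. The site at chr21:39752733-39753053, beside the first, had areas of 369 in TAZ-CAMTA1, 234 in YAP-TFE3, 70.0 in CAMTA1 and 24.7 in YAP5SA. The lack of an EV peak was set by the choice of these sites, and the ranking favoured high fusion areas. TAZ4SA had no peak at any of them either, while YAP5SA was above CAMTA1 at the site in the body and below it at the others. Of the 5 strongest sites of this class, 1 was in the fusion lists alone, at chr21:39964705-39965079 with areas of 171 in TAZ-CAMTA1 and 230 in YAP-TFE3.

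Of the 5 ERG sites that every list held, TAZ-CAMTA1 was at least 2 times EV at 5, CAMTA1 at 5 and YAP-TFE3 at 4. Over all 60372 sites that every list held, the shares were 64.4% for TAZ-CAMTA1, 52.5% for CAMTA1 and 66.0% for YAP-TFE3. The largest of the 5 ERG sites, at chr21:39811120-39813429, had areas of 1094 in EV, 1215 in TAZ4SA, 1856 in YAP5SA, 3203 in CAMTA1, 1649 in TFE3, 3356 in TAZ-CAMTA1 and 3363 in YAP-TFE3. CAMTA1 was close to both fusions there, and EV was lowest. The site at chr21:40033220-40034227, 9.77 to 10.8 kb from the 5′-side end, had areas of 327 in EV, 27.6 in TAZ4SA, 445 in YAP5SA, 911 in CAMTA1, 456 in TFE3, 1552 in TAZ-CAMTA1 and 2464 in YAP-TFE3. The exception for YAP-TFE3, at chr21:39810340-39810878, had areas of 62.5 in EV, 133 in TAZ4SA, 627 in YAP5SA, 235 in CAMTA1, 105 in TFE3, 550 in TAZ-CAMTA1 and 63.0 in YAP-TFE3, so that YAP5SA was highest. A site that TAZ4SA lacked also differed from the first ones. At chr21:39875221-39876337 EV was exceeded by the fusions alone, with an area of 1579 against 2540 in TAZ-CAMTA1, 1923 in YAP-TFE3, 1136 in CAMTA1, 720 in TFE3 and 620 in YAP5SA, and TAZ4SA had no peak.

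FLI1, the other ETS factor, was open with every vector and did not gain peaks with the fusions. It held 39 peaks in EV, 39 in TAZ4SA, 43 in YAP5SA, 36 in CAMTA1, 24 in TFE3, 37 in TAZ-CAMTA1 and 33 in YAP-TFE3. The ratio to EV was 0.95 (0.61 to 1.48) for TAZ-CAMTA1 and 0.85 (0.53 to 1.34) for YAP-TFE3. The upper bound for YAP-TFE3 was below the whole-list ratio of 1.38, and that for TAZ-CAMTA1 was not. Covered bases gave ratios of 1.30 and 1.13, above 1 where peak number was below it. Peak number also depends on how a broad site is split. The site at chr11:128559414-128566700 held 4 peaks in EV and 1 in each fusion list. Counted by site, EV held 27, TAZ-CAMTA1 30 and YAP-TFE3 27.

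Most of the FLI1 signal sat in a pair of broad sites in the first part of the window. The site at chr11:128559414-128566700, 7287 bp long, had areas of 19947 in EV, 12515 in TAZ4SA, 22523 in YAP5SA, 29579 in CAMTA1, 17311 in TFE3, 33315 in TAZ-CAMTA1 and 33644 in YAP-TFE3. The site at chr11:128583639-128587990 had areas of 15759 in EV, 8232 in TAZ4SA, 20374 in YAP5SA, 23860 in CAMTA1, 13957 in TFE3, 24737 in TAZ-CAMTA1 and 25487 in YAP-TFE3. At both, TAZ4SA was lowest, and the fusions were 1.57 to 1.69 times EV. The third site of this part, chr11:128555758-128558276, rose from 2782 in EV to 6393 in TAZ-CAMTA1 and 6499 in YAP-TFE3, with 971 in TAZ4SA.

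**Figure D3:**
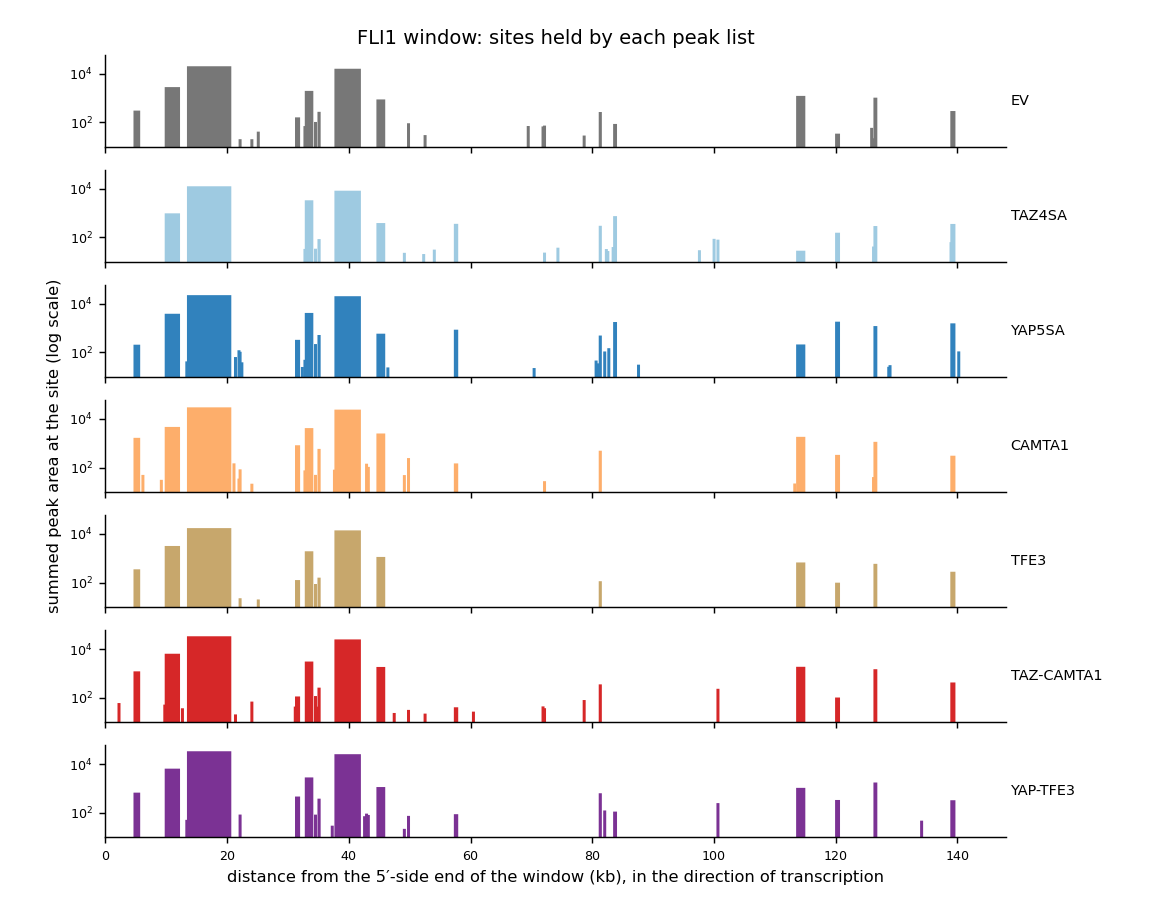
Sites of the FLI1 window in each list, with the distance from the 5′-side end of the window in kb on the x axis and the summed peak area at the site on a log y axis whose floor lies below the smallest area of any peak. The broad sites at 13.4 to 20.7 kb and 37.6 to 42.0 kb were present in all 7 lists, with areas of 8232 or more.

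FLI1 had 71 sites, of which 12 were in all lists, 2 in both fusion lists and not in EV, and 0 in the fusion lists alone. EV held 5 sites that neither fusion list had, the most of any window, and the 3 largest had EV areas of 59.2 to 70.5. The distal site at chr11:128665886-128666696, named after its values were seen, had an area of 1836 in YAP5SA and of 337 or less in every other list, with 34.2 or more in each. The neighbouring stretches of FLI1 also held no more peaks in the fusion lists than in EV, with 118 in TAZ-CAMTA1 and 105 in YAP-TFE3 against 120.

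CDH5 was the most covered window and in peak number changed about as the whole lists did, but less in covered bases and summed area. It held 18 peaks in EV, 15 in TAZ4SA, 25 in YAP5SA, 24 in CAMTA1, 23 in TFE3, 26 in TAZ-CAMTA1 and 26 in YAP-TFE3. The ratio to EV was 1.44 for either fusion (0.80 to 2.61), against 1.38 over the whole lists. Covered bases were 11635 in EV, 6915 in TAZ4SA, 16564 in TAZ-CAMTA1 and 12906 in YAP-TFE3, with the full-length YAP5SA, CAMTA1 and TFE3 between 9767 and 11889. TAZ-CAMTA1 thus covered 28.1% of the window and YAP-TFE3 21.9%, against 19.7% in EV. The ratios of covered bases to EV were 1.42 and 1.11, against 1.61 and 1.48 over the whole lists. Those of summed area were 1.85 and 1.60, against 2.04 and 2.17.

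The largest CDH5 site, chr16:66415802-66417951, had areas of 5941 in EV, 5822 in TAZ4SA, 10126 in YAP5SA, 9098 in CAMTA1, 5655 in TFE3, 9490 in TAZ-CAMTA1 and 10177 in YAP-TFE3. Here YAP5SA and CAMTA1 were as high as the fusions. The site at chr16:66397561-66400852, 7.56 to 10.9 kb from the 5′-side end, had areas of 4969 in EV, 976 in TAZ4SA, 2057 in YAP5SA, 4795 in CAMTA1, 3782 in TFE3, 7821 in TAZ-CAMTA1 and 5082 in YAP-TFE3. TAZ-CAMTA1 was above EV there, whereas the ratio of YAP-TFE3 to EV was 1.02. Of the 31 CDH5 sites, 6 were in both fusion lists and not in EV, and the 2 in the fusion lists alone lay side by side at chr16:66410819-66410923 and chr16:66411345-66412287 with areas between 72.9 and 220.

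The receptor genes differed from each other. KDR had few peaks in any list, 4 in EV, 4 in TAZ4SA, 5 in YAP5SA, 5 in CAMTA1, 5 in TFE3, 6 in TAZ-CAMTA1 and 5 in YAP-TFE3. The ratio of TAZ-CAMTA1 to EV was 1.50 (0.45 to 4.95) and that of YAP-TFE3 1.25 (0.36 to 4.30), so a change in number was not detectable at this count. Most of its signal was in 1 site at chr4:55991303-55992702, 9.30 to 10.7 kb from the 5′-side end. Its area was 1818 in EV, 850 in TAZ4SA, 1122 in YAP5SA, 2784 in CAMTA1, 1536 in TFE3, 3168 in TAZ-CAMTA1 and 3915 in YAP-TFE3. The fusions were highest, and TAZ4SA, YAP5SA and TFE3 were below EV. A small site in all lists near the 3′-side end, chr4:55935461-55935762, had areas of 71.5 in EV, 401 in TAZ-CAMTA1 and 433 in YAP-TFE3, with 72.2 to 140 in the full-length lists.

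At TEK, EV was the lowest of the 7 lists in peaks, in bases and in summed area. The window held 14 peaks in EV, 23 in TAZ4SA, 24 in YAP5SA, 16 in CAMTA1, 20 in TFE3, 32 in TAZ-CAMTA1 and 28 in YAP-TFE3. The ratio to EV was 2.29 (1.23 to 4.24) for TAZ-CAMTA1 and 2.00 (1.06 to 3.76) for YAP-TFE3, and the whole-list ratio of 1.38 lay inside both intervals. Covered bases were 4858 in EV, 6394 in TAZ4SA, 8106 in YAP5SA, 8785 in CAMTA1, 6377 in TFE3, 10132 in TAZ-CAMTA1 and 11004 in YAP-TFE3. In contrast to ERG, TAZ4SA was above EV at this locus. The neighbouring stretches held 13 peaks in EV, 21 in TAZ-CAMTA1 and 37 in YAP-TFE3.

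The 3 TEK sites with the largest area in any list were highest in YAP5SA or YAP-TFE3. At chr9:27193719-27195439 the area was 701 in EV, 2688 in TAZ4SA, 4348 in YAP5SA, 2801 in CAMTA1, 1843 in TFE3, 1891 in TAZ-CAMTA1 and 4144 in YAP-TFE3. At chr9:27151482-27152504 it was 175 in EV, 1166 in TAZ4SA, 2408 in YAP5SA, 1095 in CAMTA1, 388 in TFE3, 718 in TAZ-CAMTA1 and 1162 in YAP-TFE3. At both, TAZ-CAMTA1 was below TAZ4SA. Over the whole TEK window its summed area was above that of TAZ4SA, 13955 against 8955. At chr9:27226837-27228034 YAP-TFE3 led with 2904, followed by TAZ-CAMTA1 with 1505 and YAP5SA with 1389, and EV was lowest with 604. The site that was largest in EV, chr9:27108778-27109871 at 9.78 to 10.9 kb from the 5′-side end, was named after its values were seen and behaved differently. Its area was 1261 in EV, 2188 in TAZ-CAMTA1 and 1441 in YAP-TFE3, and all 4 full-length lists were below EV, from 89.9 in TAZ4SA to 885 in CAMTA1.

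Of the 34 TEK sites, 10 were in both fusion lists and not in EV. Each of TAZ4SA, CAMTA1 and TFE3 held 4 of the 10, YAP5SA held 5, and 4 were in no full-length list. Over all 52280 such sites of the series, TAZ4SA held 18.7%, CAMTA1 62.5%, TFE3 37.2% and YAP5SA 45.4%, and 11730 were in no full-length list. Among the 10 TEK sites, chr9:27165103-27165639, singled out by area, was in the fusion lists alone, with areas of 253 in TAZ-CAMTA1 and 295 in YAP-TFE3. The site at chr9:27181367-27181728 was largest in YAP5SA, at 842, with 261 in TAZ-CAMTA1, 211 in YAP-TFE3 and no peak in EV.

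**Figure D4:**
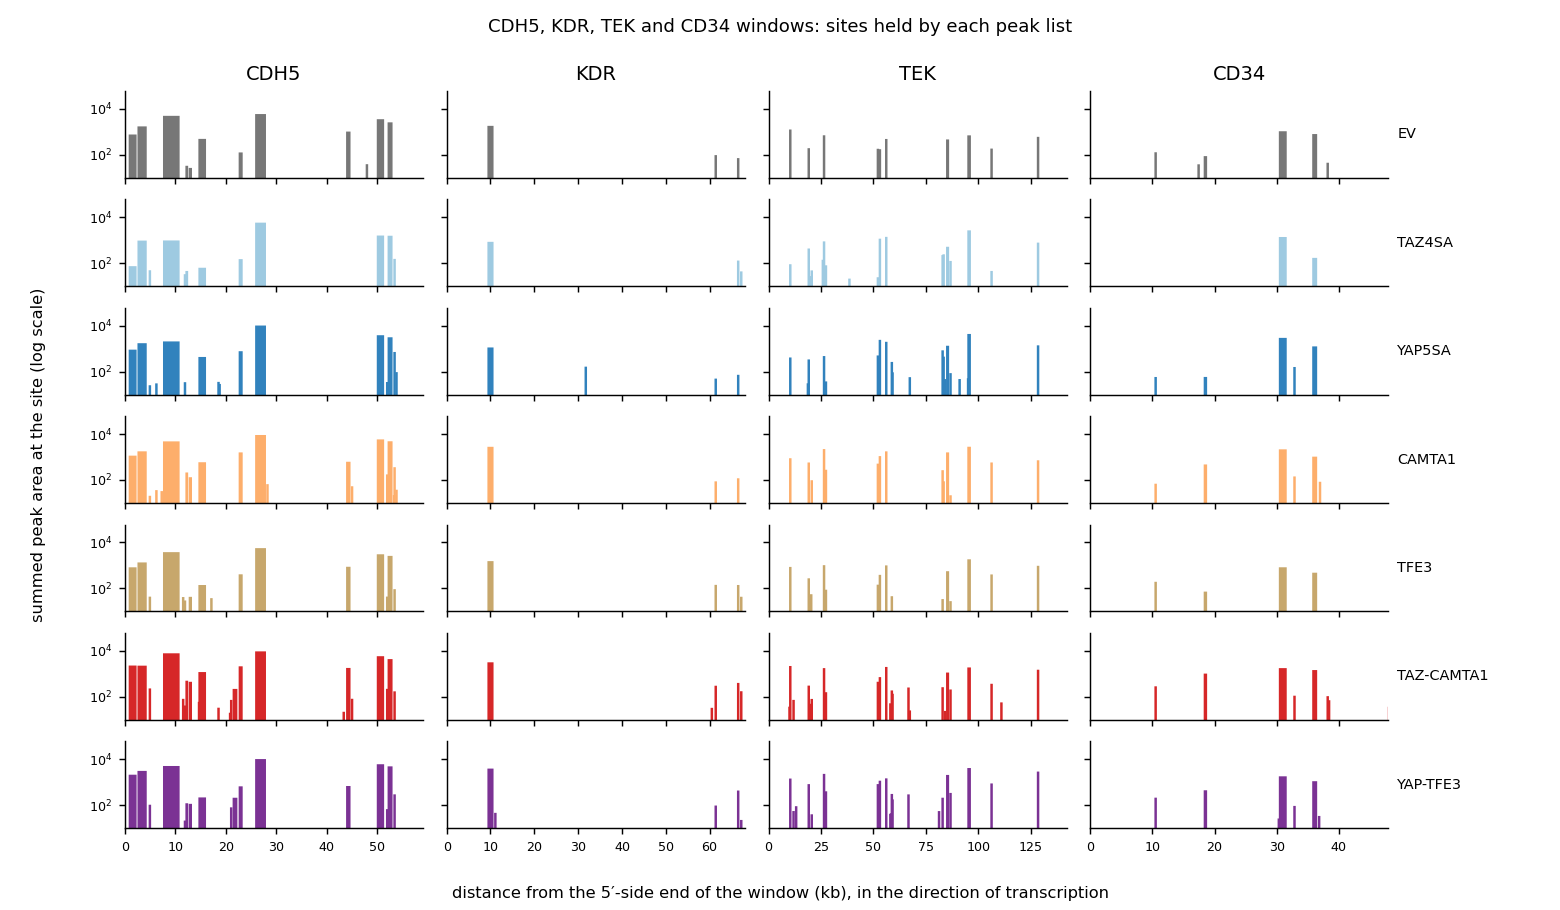
Sites of the CDH5, KDR, TEK and CD34 windows (columns) in each list (rows), with the distance from the 5′-side end in kb on the x axes and the summed peak area at the site on log y axes whose floor lies below the smallest area of any peak. KDR had 1 large site, with areas from 850 in TAZ4SA to 3915 in YAP-TFE3, and at TEK EV had the fewest sites, 10 of 34.

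CD34 had 8 peaks in EV, 2 in TAZ4SA, 5 in YAP5SA, 7 in CAMTA1, 4 in TFE3, 10 in TAZ-CAMTA1 and 9 in YAP-TFE3. The ratio to EV was 1.25 (0.51 to 3.07) for TAZ-CAMTA1 and 1.12 (0.45 to 2.82) for YAP-TFE3, and a difference was not detectable at this count. The largest site, chr1:208063375-208064647, had areas of 1058 in EV, 1380 in TAZ4SA, 2933 in YAP5SA, 2159 in CAMTA1, 828 in TFE3, 1768 in TAZ-CAMTA1 and 1803 in YAP-TFE3. YAP5SA and not a fusion was highest there. The site at chr1:208076197-208076750 went the other way, with 87.3 in EV, 58.3 in YAP5SA, 474 in CAMTA1, 72.1 in TFE3, 1020 in TAZ-CAMTA1, 445 in YAP-TFE3 and no peak in TAZ4SA. Of 12 CD34 sites, 1 was in both fusion lists and not in EV, and YAP5SA and CAMTA1 held it too.

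At sites that all 7 lists held, the areas of the lists could be set side by side. The median ratios of both fusions to EV were lower in the windows than over the series. FLI1 supplied 12 of the 38 sites and CDH5 8, and no interval was computed for these medians. The median ratio to EV over the 38 sites was 1.97 for TAZ-CAMTA1, against 2.40 over the 60372 such sites of the series. It was 2.02 against 2.45 for YAP-TFE3 and 1.87 against 2.07 for CAMTA1. The medians were 1.48 against 1.32 for YAP5SA, 1.00 against 1.07 for TFE3 and 0.58 against 0.64 for TAZ4SA. Areas grow with the depth and scaling of a list, which were not known, so each ratio is to be read against its own genome median.

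An area of at least 2 times that of EV was found at 19 of the 38 sites for TAZ-CAMTA1, against 64.4% of all such sites, and at 19 for YAP-TFE3, against 66.0%. The counts were 18 for CAMTA1 against 52.5%, 13 for YAP5SA against 30.7%, 5 for TFE3 against 16.6% and 6 for TAZ4SA against 11.0%. Both fusion counts lay below the background share, but no interval was computed for them and they differed by member. TAZ-CAMTA1 reached this ratio at 5 of 5 ERG sites, 7 of 9 TEK sites, 3 of 12 FLI1 sites, 3 of 8 CDH5 sites, 1 of 2 KDR sites and 0 of 2 CD34 sites. YAP-TFE3 reached it at 4 of 5 ERG sites, 8 of 9 TEK sites, 3 of 12 FLI1 sites, 2 of 8 CDH5 sites, 2 of 2 KDR sites and 0 of 2 CD34 sites.

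The median ratio to EV at ERG was 4.31 for TAZ-CAMTA1 and 3.07 for YAP-TFE3, over 5 sites. At TEK it was 2.49 for TAZ-CAMTA1 and 4.45 for YAP-TFE3, over 9 sites. At KDR it was 3.67 and 4.11, over 2 sites. FLI1, CDH5 and CD34 lay between 1.54 and 1.76 in both lists, under the genome medians. Among the full-length lists at ERG, the median was 2.90 for CAMTA1, close to YAP-TFE3, 1.51 for TFE3, 1.36 for YAP5SA and 0.51 for TAZ4SA. At TEK it was 2.76 for YAP5SA, 3.14 for CAMTA1, 1.45 for TFE3 and 1.30 for TAZ4SA. TAZ4SA was above EV at 7 of 9 TEK sites, although it was above EV at 2 of 5 ERG sites and had a genome median under 1.

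**Figure D5:**
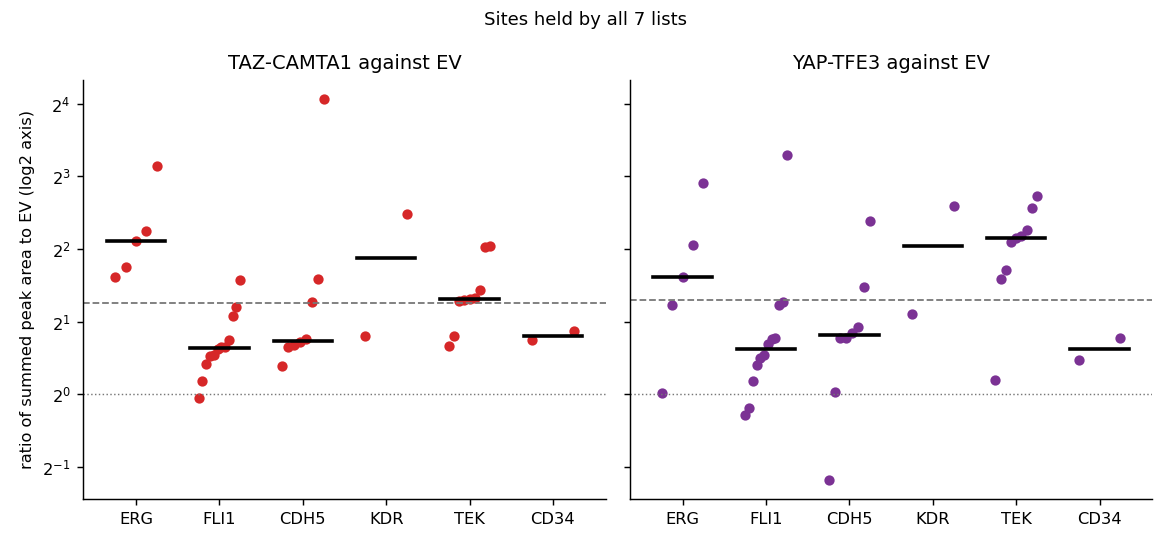
Ratio of the summed peak area to EV (log2 y axis) at sites held by all 7 lists, by gene (x axis), for TAZ-CAMTA1 and YAP-TFE3, where a point is a site and a bar the median. The dashed line is the median of all such sites of the series (2.40 and 2.45) and the dotted line is no difference; the 5 ERG sites lay between 3.07 and 8.79 for TAZ-CAMTA1, above the dashed line, and between 1.008 and 7.54 for YAP-TFE3, on both sides of it.

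The fusion lists resembled each other in the windows about as they did elsewhere. The Jaccard index, the bases covered by both lists divided by those covered by either, was 0.64 between TAZ-CAMTA1 and YAP-TFE3 in the windows and 0.68 over the whole lists. Between TAZ-CAMTA1 and CAMTA1 it was 0.61 and 0.67, and between TAZ-CAMTA1 and TAZ4SA 0.33 and 0.37. At ERG the index of TAZ-CAMTA1 with TAZ4SA was 0.068 while that with YAP-TFE3 was 0.55. At FLI1 the same indices were 0.42 and 0.69. The index is limited by the difference in covered bases. At ERG TAZ4SA covered 1396 bp and TAZ-CAMTA1 18453 bp, so their index had to be low whatever the overlap.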

How the data were processed

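Accessible chromatin was measured by ATAC-seq in 20 libraries of 7 vectors, and the deposited files are 7 peak lists in hg19 coordinates. Per the study's methods, the authors trimmed reads with NGmerge, aligned them with BWA-MEM and called peaks with Genrich set for ATAC-seq, leaving out PCR duplicates, blacklisted regions and the mitochondrial genome. The submitters' processing notes name Bowtie 0.12.2 and the mouse build mm8, which the human chromosome names contradict. Peaks on chromosome 1 reached base 249240671, beyond the 248956422 bases of GRCh38. The methods describe calling on each replicate, while there is 1 list for each vector and the way in which its libraries were joined is not stated. The deposited signal of a peak is an area, the caller's statistic summed along the peak, with a lowest value of 20. The −log10 p of the summit was also deposited by the authors.

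Groups came from the sample titles. Peaks overlapping a window by 1 bp were counted, overlapping peaks of all lists were merged to sites, and covered bases, flanks of equal length and Jaccard indices were computed with Python 3.11.15, pandas 2.3.3 and numpy 2.4.6. Overlap and merging gave the results of bedtools 2.31.1 on simulated peaks in 3 of 3 checks. Shares have Wilson 95% intervals, and those of ratios were derived from them. They cover counting error only, and depth is unknown. No test was run, since each vector has 1 list.

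The named sites were, in each window, the 3 with the largest area in any list, up to 5 in both fusion lists and not in EV ranked by the smaller fusion area, up to 3 EV sites in neither fusion list, and the site in all lists with the largest smallest area. Part of them is printed. The members, lists and rules were chosen with earlier results of these data known. Sites over transcription starts, marker genes and motifs within peaks were not analysed here, as the reference used was GRCh38. GENCODE 44 and RefSeq on GRCh38 gave strands, gene lengths and upstream sequences only. The alternatives were 2 limits on the summit, lists cut to 152702 peaks by −log10 p or by area, an overlap of 50%, windows shortened by 10 kb at both ends, covered bases, summits widened by 250 bp on both sides, and leaving out ERG, the last chosen after seeing the data.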

Additional observations from a re-analysis of the deposited data

How the results depend on the processing

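The ratios of peak number to EV over the 6 windows stayed above 1 under every alternative run, and lay between 1.09 and 1.70 for TAZ-CAMTA1 and between 1.02 and 1.67 for YAP-TFE3. They left their 95% intervals when every list was cut to the same number of peaks, to 1.09 and 1.02 by −log10 p and to 1.11 and 1.02 by area, where the whole-list ratio is 1 by construction. The ratio at ERG alone stayed within its interval under all 7 alternatives applied to it, from 1.78 to 3.29 for TAZ-CAMTA1 and from 1.57 to 2.87 for YAP-TFE3. At FLI1 the TAZ-CAMTA1 ratio of 0.95 moved to 0.58 when summits needed a −log10 p of 4 or more, and to 0.47 and 0.50 in lists cut to equal length by −log10 p and by area.

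The share of TAZ-CAMTA1 peaks with no EV peak moved from 54.4% to 44.1% when summits needed a −log10 p of 5 or more, to 42.6% and 40.0% in lists cut to equal length by −log10 p and by area, to 71.7% with an overlap of 50% of both peaks, to 45.4% of covered bases, to 46.7% with summits widened by 250 bp on both sides, and to 46.8% without ERG. For YAP-TFE3 it moved from 48.5% to 36.6% in lists cut to equal length by −log10 p and 36.6% by area, to 70.3% with an overlap of 50%, to 40.1% of covered bases and to 40.6% without ERG. The shares of the whole lists of TAZ-CAMTA1 and YAP-TFE3 moved too, to 36.7% and 37.1% at equal length by −log10 p and to 36.1% and 36.5% by area. They were 42.7% and 45.7% with a summit −log10 p of 5 or more, and 42.2% and 42.2% with summits widened by 250 bp. They were not computed with an overlap of 50% or by covered bases.

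The total number of sites also changed with the setting. The 44 of 242 sites in both fusion lists and not in EV became 25 of 174 and 19 of 85 when summits needed a −log10 p of 4 or 5. In lists cut to equal length they became 19 of 160 by −log10 p and 24 of 156 by area. With summits widened by 250 bp on both sides they became 29 of 174, and without ERG 20 of 155. The 20 sites in the fusion lists alone became, in the same order and of the same totals, 9, 4, 7, 8, 11 and 6. The shares of all sites of the series in these classes were not computed under the alternatives. No paired analysis was possible because each vector has a single list that joins its libraries, and no library could be left out for the same reason. The intervals of the ratios to EV were widest at KDR and CD34, where EV held 4 and 8 peaks.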

Other observations

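The summed peak area of a whole window, a value that grows with the depth of a list, was highest relative to EV at ERG for TAZ-CAMTA1 and at TEK for YAP-TFE3. At ERG it was 4.17 times EV for TAZ-CAMTA1 and 3.67 times for YAP-TFE3, against 2.04 and 2.17 over the whole lists. At TEK it was 2.81 and 4.05, and at FLI1 1.67 and 1.68. Among the full-length lists, TAZ4SA had 0.29 times the EV area at ERG and 1.80 times at TEK, against 0.71 over the whole list. YAP5SA had 1.18 times at ERG and 3.06 times at TEK, against 1.41. None of these ratios has a replicate error.

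Single sites outside the named ones also differed between lists. The site at chr16:66412540-66413338 of CDH5, singled out for the largest ratio of TAZ-CAMTA1 to EV at any site held by all lists in the windows, had areas of 126 in EV, 150 in TAZ4SA, 771 in YAP5SA, 1588 in CAMTA1, 409 in TFE3, 2120 in TAZ-CAMTA1 and 660 in YAP-TFE3. CAMTA1 and its fusion were the highest there, and YAP5SA was above YAP-TFE3.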
